A study of Danio rerio with 32 samples.

Results

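Larvae of the pllp mutant line pd1116 were set against wild-type larvae of the strain EK, both raised on a low protein (LP) diet. The comparison rests on 6 of the 32 libraries of the series, all of whole zebrafish larvae at 20 days after fertilization: 3 labelled pd1116 and LP, and 3 labelled EK and LP. The same lines on a high protein (HP) diet (3 pd1116 and 3 EK libraries) and 3 libraries of a second mutant line, pd1245, on LP were used where a difference was to be placed beside another diet or allele. The submitters describe pd1116 as the old pllp mutation, whose survival defect under restricted nutrition had adapted, and pd1245 as a new one that still has the defect. The labels do not give the lesion, the zygosity, the genetic background of the mutant lines, or the number of larvae, tanks or clutches behind a library, so the mutation and the background of its line cannot be told apart, and each p measures the spread between these samples only. In RNA from whole larvae, fewer cells of a type and less RNA per cell cannot be told apart either.

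Plasmolipin, the product of pllp, spans the membrane, belongs to the MAL family and organises apical membrane and endosomal traffic in epithelia. In zebrafish it has been studied in the gut, where lysosome-rich enterocytes take up intact dietary protein through the receptor cubilin, its membrane partner amnionless and the adaptor Dab2, and digest it with lysosomal cathepsins. Enterocytes nearer the mouth absorb lipid instead, and package it with apolipoproteins into particles for the blood.

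Between 19838912 and 27157211 reads were assigned to genes in the pd1116 libraries on LP, and between 23046748 and 25125961 in the EK libraries on LP. Levels are given as CPM, read counts scaled to a common library total, and differences as log2 fold change of pd1116 over EK with its standard error (SE). A gene is said to have passed the test where edgeR's quasi-likelihood F test gave a Benjamini-Hochberg adjusted p below 0.05 over all 22742 genes tested, and "rose" or "fell" is used only of such genes. The fit pooled the spread of 18 libraries, among them replicate 3 of pd1245 on LP. It stood apart from all others, with 14.22% of reads on genes for ribosomal proteins. Counts on LP are therefore also given, for the whole table and most lists described, for a fit of the compared groups alone. For the whole table and the gut and liver lists, counts are also given for a fit without that library. Among the 6 libraries on LP, the first principal component held 56.9% of the variance and separated the lines, with pd1116 between 17.4 and 20.4 and EK between −20.6 and −17.4. Replicate 2 of pd1116 lay apart from the other pd1116 libraries on the second component, at 19.1 against −10.4 and −7.91, with 15.3% of the variance.

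pllp itself (ENSDARG00000062756) had 6.49, 8.03 and 6.88 CPM in pd1116 on LP, against 12.8, 15.3 and 17.1 CPM in EK on LP. The groups did not overlap, and pllp fell by 1.08 on the log2 scale (SE 0.17, adjusted p = 7.13e-04). On HP it had 6.46, 6.95 and 7.03 CPM in pd1116, against 12.0, 12.5 and 11.3 CPM in EK, and fell there too (log2 fold change −0.81, adjusted p = 0.0102). A transcript was thus still counted in the mutant on either diet. The allele pd1245 on LP held 7.02, 6.10 and 3.39 CPM, and pd1116 did not pass the test against it (log2 difference 0.35, SE 0.18, adjusted p = 0.176). A list of 41 tested genes of the MAL family and epithelial endosomal traffic includes pllp, which was the 1 member that passed on LP in the pooled fit by edgeR. The median log2 fold change of the list was 4.86e-04. In the compared groups alone 2 members rose and 4 fell, where 6.77% of all genes rose and 7.79% fell. By DESeq2 1 rose and 2 fell, where 3.13% of all genes rose and 4.32% fell.

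On LP, 1519 genes passed the test, which is 6.68% of those tested: 641 (2.82%) were higher in pd1116 and 878 (3.86%) lower. By at least 2-fold, 460 genes passed (2.02%), 190 higher and 270 lower. An unadjusted p below 0.05 was reached by 4810 genes (21.2%). Fitting only the 6 libraries compared gave 3192 genes, and leaving out replicate 3 of pd1245 on LP gave 2968. The share of all genes was thus 6.77% higher and 7.79% lower in the compared groups alone, and 5.89% higher and 7.01% lower without replicate 3 of pd1245, against which list counts from those fits are to be read. Leaving out 1 of the 6 libraries gave between 752 (without replicate 3 of pd1116) and 1052 (without replicate 2 of pd1116). In those pooled fits 1.36% to 1.9% of all genes were higher and 1.91% to 2.67% lower. List counts on LP with 1 of these libraries left out are to be read against those smaller shares. The median log2 fold change of all genes was 0.00165. Libraries of the lines did not overlap in 7677 genes (33.8%), and in 1509 of the genes that passed (6.64% of those tested).

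Of the genes with the largest differences on LP, 6 that also passed on HP are described first, while cbln6 and apobb.2, which overlapped between the lines on HP, are described further on. EMILIN2, which encodes a glycoprotein of the extracellular matrix, had 19.2, 21.5 and 20.8 CPM in pd1116 on LP, against 0.943, 0.896 and 0.692 CPM in EK on LP. Its difference was 4.59 on the log2 scale (SE 0.15, adjusted p = 3.48e-13), and 4.2 on HP. adgrf7, an adhesion G protein-coupled receptor gene, had 4.31, 6.24 and 7.36 CPM in pd1116, against 0.118, 0.244 and 0.216 CPM in EK (log2 fold change 4.93, SE 0.37, adjusted p = 8.12e-08). mmp30, a matrix metalloproteinase gene, had 44.2, 38.6 and 34.1 CPM in pd1116 and 3.81, 3.71 and 5.32 CPM in EK on LP (3.19, SE 0.27, adjusted p = 5.29e-07). On the lower side, TP53I3, named for its induction by p53 and encoding an oxidoreductase, had 0, 0.0495 and 0.0349 CPM in pd1116, against 3.18, 3.34 and 3.81 CPM in EK (−6.67, SE 0.43, adjusted p = 1.04e-08). paqr7a, a membrane progestin receptor gene, had 0.194, 0 and 0.209 CPM in pd1116, against 3.89, 7.74 and 4.93 CPM in EK (−5.22, SE 0.55, adjusted p = 1.13e-05). lgals1l1, a galectin gene, had 1.31, 1.83 and 1.26 CPM in pd1116, against 12.3, 11.2 and 25.5 CPM in EK (−3.49, SE 0.50, adjusted p = 2.66e-04). These 6 genes were chosen for passing on HP too, and the lines stayed apart there in every library.

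A few genes without a descriptive symbol differed more, and they were picked after their values were seen. si:ch211-133n4.9 had 56.1, 47.9 and 53.8 CPM in pd1116 on LP and no count in any EK library on LP, so it was at least 1280-fold higher in pd1116, taking 3 counts over the EK group as the floor. It also had no count in EK on HP or in pd1245 on LP, against 71.8, 78.7 and 69.5 CPM in pd1116 on HP. si:dkey-88j15.3 and si:dkey-88j15.4, named from the same genomic clone, moved together. si:dkey-88j15.3 had 14.9, 29.0 and 20.7 CPM in pd1116 on LP, against 0, 0.285 and 0.130 CPM in EK on LP. si:dkey-88j15.4 had 1.26, 2.73 and 1.99 CPM in pd1116 and no count in EK, and was at least 48.5-fold higher over the same floor. In the other direction, ENSDARG00000115161 had no count in pd1116 on either diet, against 20.4, 24.7 and 22.3 CPM in EK on LP, and was at least 520-fold lower. zgc:171534 had 0.726, 0.446 and 0.384 CPM in pd1116, against 32.4, 42.1 and 29.2 CPM in EK on LP. Both of these lower genes were counted in pd1245 on LP, with 23.4, 24.5 and 40.7 CPM for ENSDARG00000115161 and 30.8, 34.3 and 11.6 CPM for zgc:171534.

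**Figure D1:**
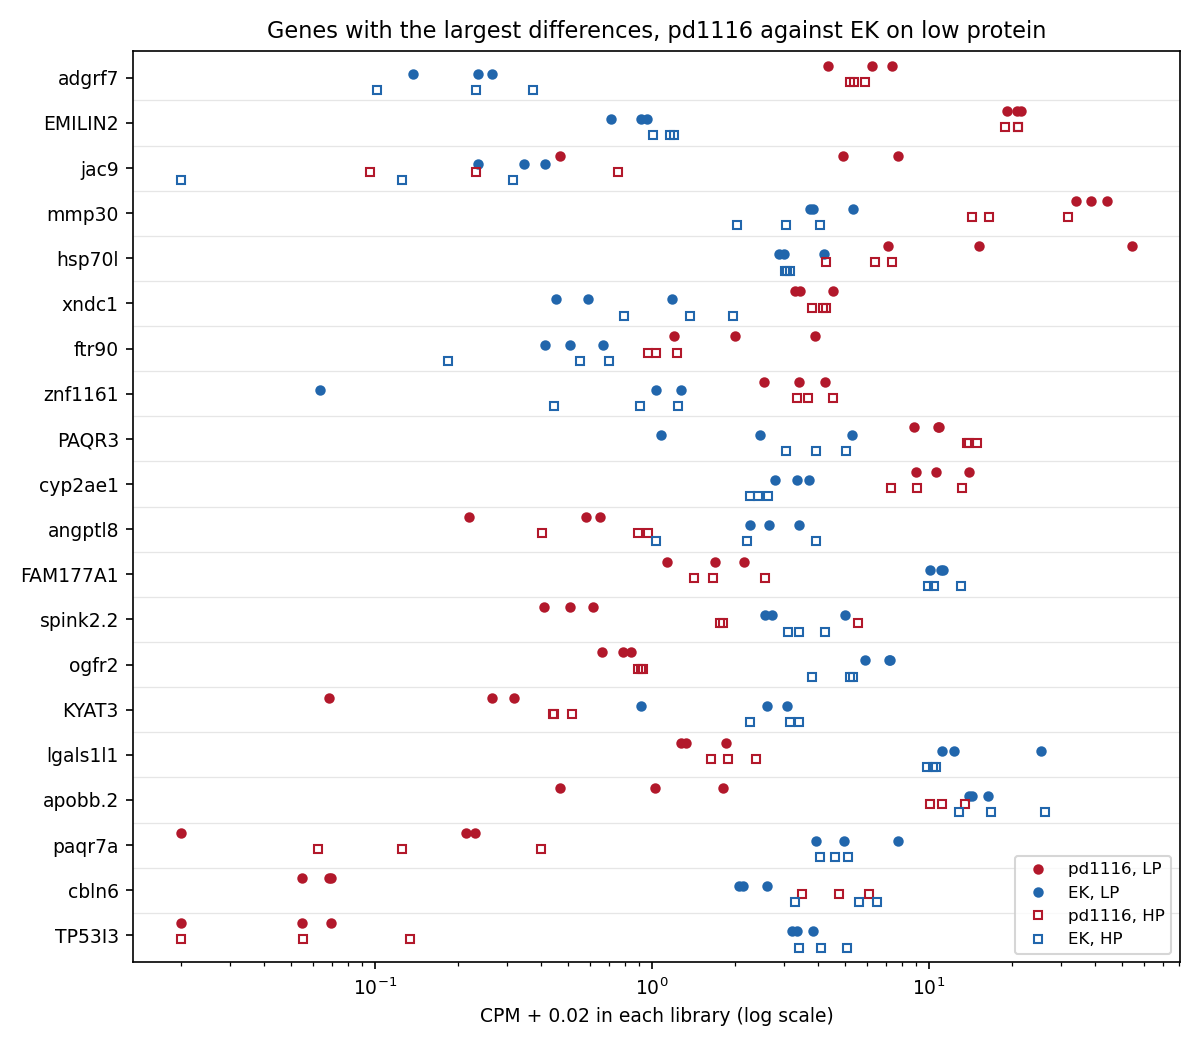
CPM (log axis, 0.02 added) of the genes with the largest differences on LP that the naming rule picked, 3 points a group, filled circles for LP and open squares for HP, pd1116 in red above EK in blue. EMILIN2, adgrf7, mmp30, TP53I3, paqr7a and ogfr2 lay apart between the lines on both diets, while cbln6 and apobb.2 overlapped on HP.

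A list of lipid absorption genes, drawn up for the anterior gut, had the largest share lower in pd1116 on LP. Of 34 members tested, 18 fell and 0 rose, where 3.86% of all genes fell. All 34 log2 fold changes lay below 0, with a median of −0.56, against 0.00165 for all genes. The summed level of the list was 20400, 18900 and 20100 CPM in pd1116 on LP, against 25500, 28000 and 27400 CPM in EK on LP, and the groups did not overlap. On HP the sums were 22800, 22500 and 24300 CPM in pd1116, against 23400, 24000 and 25900 CPM in EK, and 1 of the 34 genes fell there (CD36). Of all genes 1.63% fell on HP. The 2 liver lists described below had 24.0% and 28.2% of members lower on LP, and 8.00% and 0% higher. Libraries of whole larvae do not show which organ a transcript came from, so gut and liver cannot be told apart for this list. FABP2, an intracellular fatty acid binding protein and a defining marker of enterocytes, is a member and moved with the list, with 721, 790 and 789 CPM in pd1116, against 1016, 1188 and 1199 CPM in EK on LP (−0.56, SE 0.15, adjusted p = 0.0308). It was chosen after its values were seen, and its call was not followed through the alternative settings. In the fit of the compared groups alone 28 members fell on LP, and 26 without replicate 3 of pd1245. In the pooled fit the count was 10 without replicate 2 of EK, 9 without replicate 3 of EK, 10 without replicate 1, 9 without replicate 2 and 11 without replicate 3 of pd1116. Of all genes 1.91% to 2.67% fell in those fits.

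apobb.2, one of the zebrafish genes for apolipoprotein B, which forms the scaffold of lipoprotein particles, had 1.79, 0.446 and 1.01 CPM in pd1116 on LP, against 16.4, 14.0 and 14.4 CPM in EK on LP. This was the largest difference of the list (log2 fold change −3.78, SE 0.66, adjusted p = 0.0017). On HP its levels overlapped, with 10.07, 11.13 and 13.56 CPM in pd1116 and 12.89, 16.73 and 26.31 CPM in EK. apoea, for apolipoprotein E, had 371, 344 and 367 CPM in pd1116, against 649, 750 and 722 CPM in EK on LP (−0.97, SE 0.14, adjusted p = 2.20e-04). The lines overlapped on HP, where apoea had 558, 547 and 677 CPM in pd1116 and 608, 662 and 680 CPM in EK. apoa4b.2, for apolipoprotein A-IV, had 596, 535 and 626 CPM in pd1116, against 855, 1017 and 998 CPM in EK on LP (−0.71, SE 0.12, adjusted p = 0.00122). apoc2, the cofactor of lipoprotein lipase, fell by 0.62 on the log2 scale (SE 0.11, adjusted p = 0.00141), with 220, 198 and 220 CPM in pd1116 and 298, 354 and 333 CPM in EK. RBP2 (ENSDARG00000093774), the retinol carrier of enterocytes, had 35.6, 16.6 and 32.0 CPM in pd1116, against 75.3, 74.2 and 80.7 CPM in EK (−1.45, SE 0.28, adjusted p = 0.00339). FABP1 (ENSDARG00000059227), a cytosolic carrier of fatty acids, had 169, 164 and 179 CPM in pd1116 and 287, 299 and 318 CPM in EK (−0.82, SE 0.19, adjusted p = 0.0113). CD36, a fatty acid receptor, had 144, 145 and 136 CPM in pd1116, against 201, 206 and 200 CPM in EK on LP (−0.52, SE 0.11, adjusted p = 0.00829), and fell by 0.52 on HP as well (adjusted p = 0.0121). RBP2, FABP1 and CD36 were added for their role after their values were seen.

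**Figure D2:**
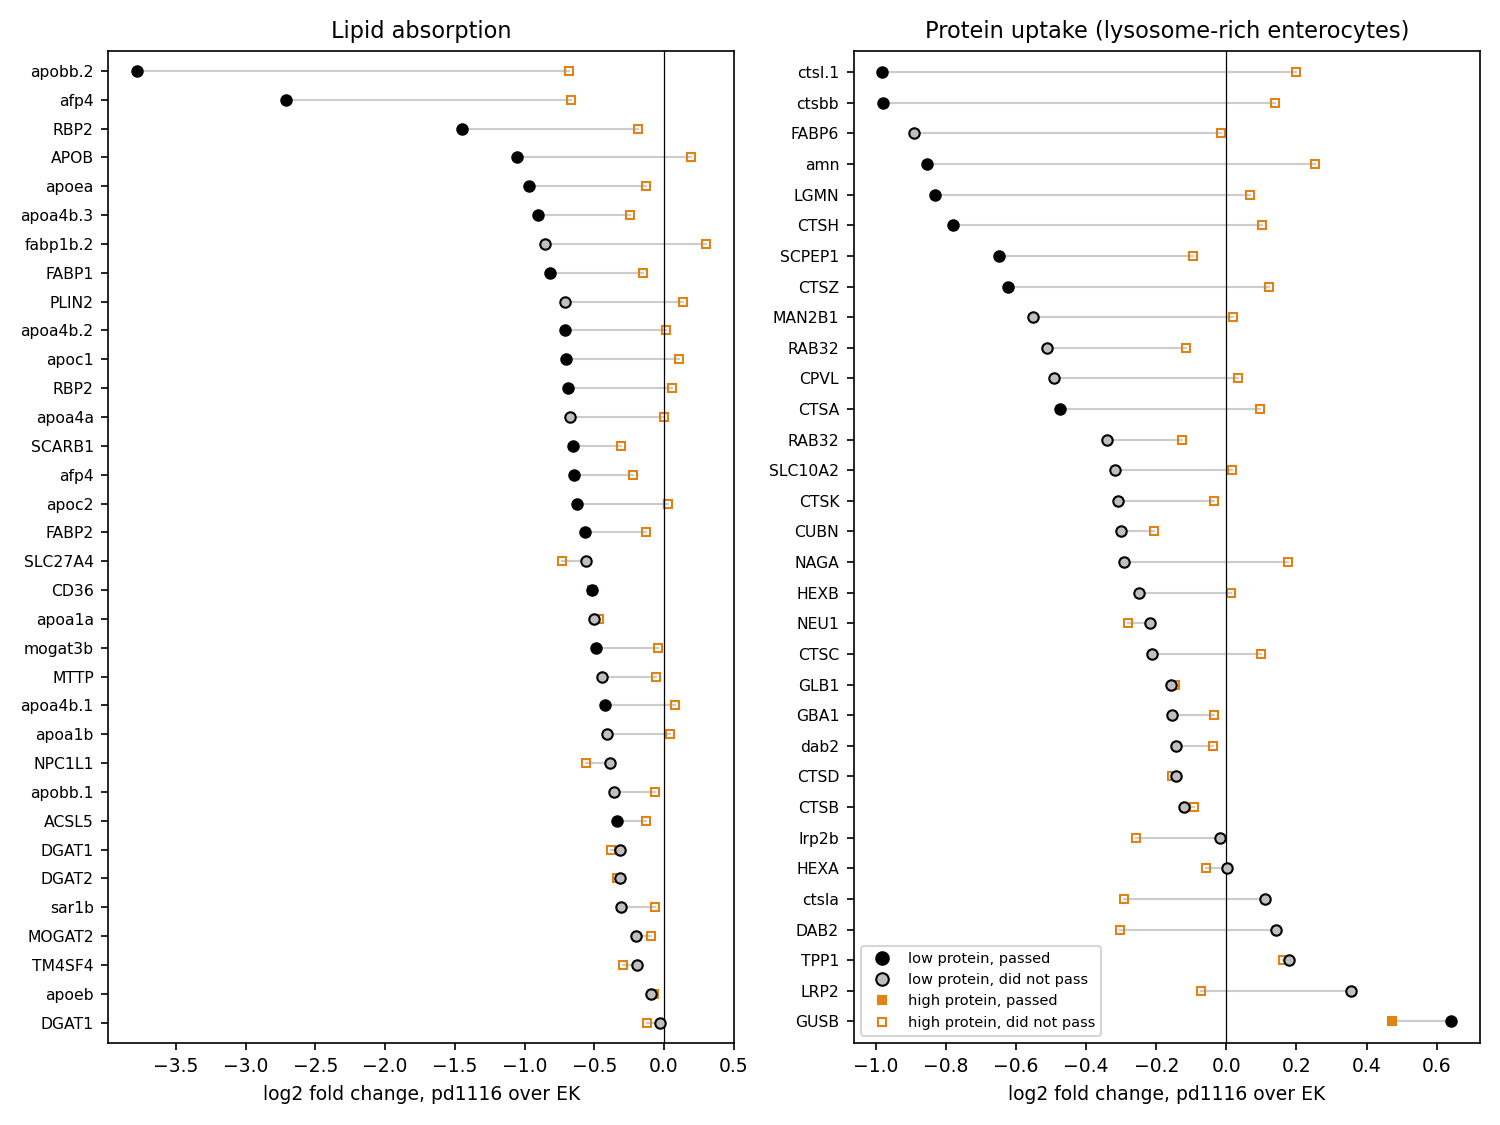
Log2 fold change of pd1116 over EK for each tested gene of lipid absorption (left) and of protein uptake by lysosome-rich enterocytes (right), black circles for LP and orange squares for HP, filled where the gene passed. Circles lie left of 0 for all 34 lipid genes and for 26 of 32 uptake genes, and most squares lie nearer to 0. Genes that share a symbol have a row each.

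Genes for enzymes and structure of the brush border, the microvillar surface of enterocytes, were also lower in part, and here the difference was seen on HP too. Of 27 members 7 fell and 0 rose on LP, and 4 fell on HP, 3 of them on both diets. The LP share was 25.9% lower, against 3.86% of all genes. On HP 1.63% of all genes fell. In the compared groups alone 10 fell and 1 rose on LP, and without replicate 3 of pd1245 9 fell. Without replicate 2 of EK, or without replicate 1 or 3 of pd1116, 4 fell on LP. LCT (ENSDARG00000092404), named for lactase, had 11.7, 6.34 and 3.84 CPM in pd1116, against 38.8, 48.5 and 24.7 CPM in EK on LP (−2.38, SE 0.36, adjusted p = 4.30e-04). On HP it had 4.51, 5.81 and 4.78 CPM in pd1116 and 22.8, 34 and 59.3 CPM in EK (−2.94, adjusted p = 7.06e-05). A second gene of that symbol, LCT (ENSDARG00000060671), had 41.7, 39.5 and 28.5 CPM in pd1116, against 87.5, 111 and 75.6 CPM in EK on LP (−1.32, SE 0.27, adjusted p = 0.00478), and fell by 1.54 on HP. Reads could be split between such near copies, so the level of each is uncertain. MEP1B (ENSDARG00000037533), for the beta subunit of the protease meprin, had 18.7, 17 and 14.2 CPM in pd1116, against 54.8, 67.8 and 47.6 CPM in EK on LP (−1.77, SE 0.21, adjusted p = 4.96e-05), and fell by 1.35 on HP (adjusted p = 7.23e-04). In each of these 3 genes every pd1116 library lay below every EK library on either diet. The summed level of the brush border list was 2840, 2770 and 2850 CPM in pd1116 on LP, against 3290, 3480 and 3390 CPM in EK on LP.

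The protein uptake genes of lysosome-rich enterocytes were lower in part on LP, and none of them fell on HP. Of 32 members tested 8 fell and 1 rose on LP (25.0% lower, against 3.86% of all genes), with a median log2 fold change of −0.30 and 26 values below 0. On HP 0 fell and 1 rose by edgeR, 3 members had an unadjusted p below 0.05, DESeq2 likewise gave 0 lower, and the median was −0.02. Of all genes 1.63% fell and 1.27% rose on HP by edgeR, and 13.3% had an unadjusted p below 0.05. Summed, the list held 2980, 3330 and 2430 CPM in pd1116 on LP, against 4260, 3810 and 4610 CPM in EK on LP. The corresponding sums on HP were 5170, 4480 and 4620 CPM in pd1116 and 5160, 4340 and 4370 CPM in EK. In the fit of the compared groups alone 13 members fell and 2 rose on LP, and without replicate 3 of pd1245 12 fell and 2 rose. Leaving out replicate 3 of pd1116 left 3 lower members, replicate 1 of EK left 5 and replicate 3 of EK left 4.

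Of the 8 members that fell on LP, 7 were lysosomal proteases. LGMN, the endopeptidase legumain, had 297, 351 and 225 CPM in pd1116, against 535, 458 and 560 CPM in EK on LP (−0.83, SE 0.17, adjusted p = 0.00552). ctsbb, a cathepsin B gene, had 113, 130 and 68.3 CPM in pd1116 and 202, 178 and 234 CPM in EK on LP (−0.98, SE 0.21, adjusted p = 0.00829). ctsl.1, a cathepsin L gene and the most abundant of these, had 671, 751 and 420 CPM in pd1116, against 1201, 1012 and 1423 CPM in EK on LP (−0.98, SE 0.24, adjusted p = 0.0194). Replicate 3 of pd1116 was the lowest library for all 3, and without it ctsl.1 did not pass (adjusted p = 0.109), nor did it without replicate 1 (0.0511) or replicate 3 (0.0914) of EK. On HP ctsl.1 had 1633, 1374 and 1385 CPM in pd1116 and 1547, 1146 and 1131 CPM in EK, and the lines overlapped. CTSH, the aminopeptidase cathepsin H, fell by 0.78 (SE 0.18, adjusted p = 0.0114), a call lost without replicate 3 of pd1116 (adjusted p = 0.0764). SCPEP1, a serine carboxypeptidase, had 34.1, 36.8 and 29.5 CPM in pd1116 and 54.7, 51.6 and 50.9 CPM in EK (−0.65, SE 0.13, adjusted p = 0.00494).

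Of the receptor and adaptor genes, amn fell on LP, while CUBN and the Dab2 genes did not pass the test. amn, for amnionless, had 8.13, 12.1 and 7.82 CPM in pd1116, against 17.2, 16.1 and 17.2 CPM in EK on LP (−0.85, SE 0.21, adjusted p = 0.0179). That call was lost when replicate 1 (adjusted p = 0.0557) or 3 (0.0590) of EK, or replicate 1 (0.0820) or 3 (0.104) of pd1116, was left out. CUBN, for cubilin, had 135, 144 and 75.5 CPM in pd1116 and 159, 102 and 175 CPM in EK, which overlap (−0.30, SE 0.27, adjusted p = 0.578). The list median was −0.30 too, and with this SE the values do not show whether CUBN moved with the list. The adaptor genes dab2 (ENSDARG00000031761) and DAB2 (ENSDARG00000053091) had values of −0.14 (SE 0.18) and 0.14 (SE 0.11), with adjusted p of 0.714 and 0.503. The gene that rose was GUSB, the lysosomal enzyme beta-glucuronidase, with 60.2, 61.2 and 61.4 CPM in pd1116, against 37.8, 40.6 and 38.7 CPM in EK on LP (0.64, SE 0.09, adjusted p = 2.56e-04). It rose on HP as well, by 0.47 (adjusted p = 0.00497). amn, ctsl.1, CUBN and the Dab2 genes were chosen after their values were seen.

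**Figure D3:**
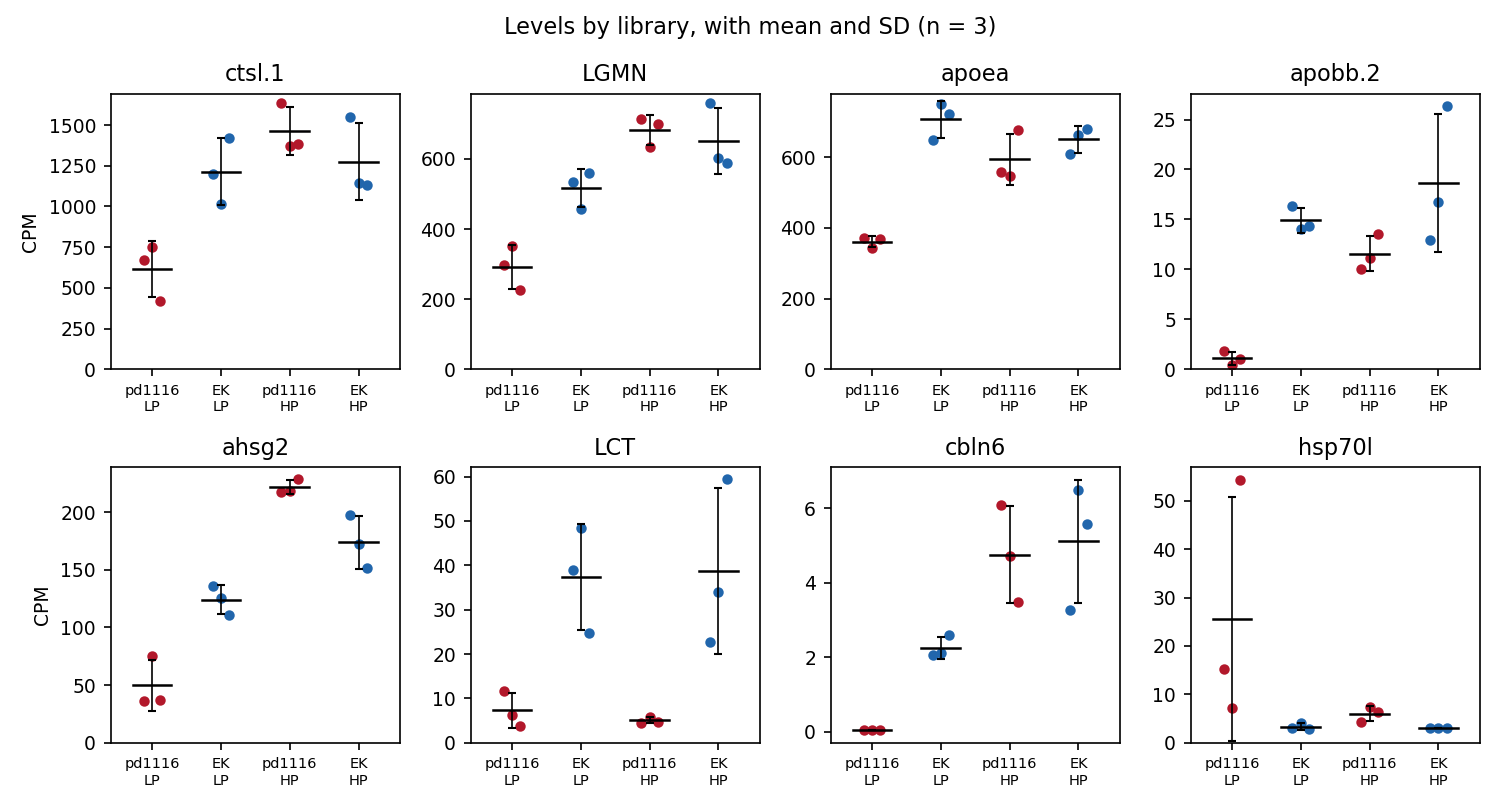
CPM of 8 genes in each library on LP and HP, pd1116 in red left of EK in blue, with the mean and SD of 3 libraries. ctsl.1, LGMN, apoea, apobb.2 and ahsg2 were lower in every pd1116 library on LP, LCT (ENSDARG00000092404) was lower on both diets, cbln6 was near 0 only in pd1116 on LP, and hsp70l was highest in 1 pd1116 library on LP.

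Liver products were lower in pd1116 on LP, with exceptions. Of 25 hepatocyte plasma protein genes tested 6 fell and 2 rose, with a median of −0.54, and of 39 coagulation and complement genes 11 fell and 0 rose, with a median of −0.36. These are 24.0% and 28.2% lower, against 3.86% of all genes, and 8.00% of the hepatocyte genes higher, against 2.82%. In the fit of the compared groups alone, where 7.79% of all genes fell, 15 of 24 and 22 of 39 fell, and 2 rose in each list. Without replicate 3 of pd1245 12 and 16 fell, and 2 and 1 rose. Coagulation and complement genes that fell numbered 7 without replicate 1 of EK, 6 without replicate 1 of pd1116 and 7 without replicate 3 of pd1116. The 4 hepatocyte genes that fell without replicate 1 of pd1116 were the fewest of that list. Hepatocyte genes summed to 6380, 7300 and 5980 CPM in pd1116 on LP, against 8930, 9350 and 8870 CPM in EK on LP, while on HP they summed to 9010, 8920 and 10000 CPM in pd1116 and 8050, 7890 and 8680 CPM in EK.

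ambp, the precursor of alpha-1-microglobulin and bikunin, had 41.3, 40.7 and 39.8 CPM in pd1116, against 90.5, 95.1 and 87.3 CPM in EK on LP (−1.16, SE 0.13, adjusted p = 1.63e-05), and fell by 0.52 on HP (adjusted p = 0.0272). ahsg2, a fetuin gene, had 36.4, 75.5 and 37.5 CPM in pd1116, against 136, 125 and 111 CPM in EK on LP (−1.32, SE 0.26, adjusted p = 0.00428). On HP the order of ahsg2 was the other way, with 218, 218 and 229 CPM in pd1116 and 198, 172 and 152 CPM in EK, without passing the test (0.35, adjusted p = 0.641). The lipoprotein gene apom had 60.3, 54.3 and 61.6 CPM in pd1116 and 113, 134 and 115 CPM in EK on LP (−1.03, SE 0.14, adjusted p = 1.30e-04). fabp10a, the liver fatty acid binding protein, had 296, 221 and 316 CPM in pd1116, against 586, 603 and 611 CPM in EK on LP (−1.11, SE 0.25, adjusted p = 0.0113, and 0.0597 without replicate 2 of pd1116). The 3 genes named F7, for coagulation factor VII, all fell: ENSDARG00000075827 by 1.23, ENSDARG00000034862 by 0.93 and ENSDARG00000100782 by 0.81, with adjusted p of 2.54e-04, 7.57e-04 and 9.42e-04. F10, for factor X, had 30.0, 33.2 and 28.2 CPM in pd1116 and 51.6, 53.7 and 50.3 CPM in EK (−0.77, SE 0.13, adjusted p = 0.00128). Against these, serpina1, for the protease inhibitor alpha-1-antitrypsin, had 267, 317 and 234 CPM in pd1116, against 122, 143 and 118 CPM in EK on LP (1.09, SE 0.15, adjusted p = 1.94e-04). It was higher on HP too, with 353, 385 and 360 CPM in pd1116 and 105, 102 and 112 CPM in EK.

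Genes of bile acids, sugar and sterols changed in smaller groups. Of 30 genes for bile acid synthesis and transport 6 fell and 0 rose on LP, with a median of −0.42 (20.0% lower, against 3.86% of all genes). When the compared groups alone were fitted 11 fell and 2 rose, and in the pooled fit 4 fell without replicate 1 of EK or replicate 2 of pd1116. NR1H4, the nuclear bile acid receptor FXR, had 5.81, 5.75 and 4.99 CPM in pd1116, against 8.92, 10.6 and 8.00 CPM in EK on LP (−0.74, SE 0.14, adjusted p = 0.00372), and fell by 0.62 on HP (adjusted p = 0.0184). ABCG5, a sterol exporter, fell by 0.72 on LP (adjusted p = 0.00373) and by 0.55 on HP (adjusted p = 0.0386). Among glucose genes, SLC2A2, the glucose carrier of liver and gut, had 29.5, 30.3 and 25.1 CPM in pd1116, against 59.5, 67.2 and 61.4 CPM in EK on LP (−1.15, SE 0.13, adjusted p = 2.39e-05). SLC2A1 (ENSDARG00000001437), a glucose carrier of many tissues, moved the other way, with 40.5, 53.8 and 44.6 CPM in pd1116 and 12.8, 14.5 and 14.8 CPM in EK (1.72, SE 0.19, adjusted p = 1.50e-05). Both carriers passed with the same direction on HP. IDI1, an enzyme of isoprenoid synthesis, fell by 0.90 on LP and by 0.97 on HP (adjusted p = 0.00542 and 0.00475). Of 35 cholesterol genes in all, 3 fell and 1 rose on LP (8.57% and 2.86%), and 11 fell and 2 rose in the compared groups alone. DIO1, a deiodinase of thyroid hormone, had 20.1, 16.1 and 12.0 CPM in pd1116, against 42.3, 39.5 and 43.2 CPM in EK on LP (−1.38, SE 0.15, adjusted p = 1.89e-05), and fell by 0.97 on HP (adjusted p = 7.22e-04). It was the 1 gene of 19 tested on the thyroid hormone axis that fell on LP, while 2 rose (5.26% and 10.5%). The median of that list was 0.04. angptl8, a hormone that inhibits lipoprotein lipase after feeding, had 0.629, 0.198 and 0.558 CPM in pd1116 and 2.24, 3.38 and 2.64 CPM in EK on LP (−2.53, SE 0.53, adjusted p = 0.00667).

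Amino acid breakdown went in either direction on LP: 8 of 73 genes rose and 9 fell (11.0% and 12.3%, against 2.82% and 3.86% of all genes), with a median of 0.06. In the compared groups alone 11 rose and 18 fell. Without replicate 2 of EK 3 rose and 2 fell, and without replicate 3 of pd1116 5 rose and 2 fell. MCCC1, of leucine breakdown, rose on LP and on HP (0.56 and 0.59, adjusted p = 5.02e-04 and 3.77e-04), whereas GOT2, the mitochondrial aspartate aminotransferase, fell on LP by 0.57 (SE 0.11, adjusted p = 0.00421). Among 64 tested genes for glutathione and other antioxidants, 8 were lower and 0 higher on LP (12.5% lower), with a median of −0.23. Among them gpx3, a secreted glutathione peroxidase, had 15.7, 15.3 and 18.7 CPM in pd1116, against 38.0, 35.4 and 36.6 CPM in EK on LP (−1.15, SE 0.18, adjusted p = 8.13e-04). Of 74 genes for folding in the endoplasmic reticulum 8 fell and 0 rose (10.8% lower), with a median of −0.16. Antioxidant genes that fell numbered 5 without replicate 1 of EK, 1 without its replicate 2 and 2 without its replicate 3, then 4 without replicate 2 of pd1116 and 3 without its replicate 3. Folding genes that fell numbered 2 without replicate 2 of EK and 3 without its replicate 3, then 1 without replicate 2 of pd1116 and 3 without its replicate 3. Compared groups alone gave 19 and 17 lower genes for these lists, and 2 and 0 higher. ASNS, the asparagine synthetase induced by the amino acid stress response, had 23.4, 16.4 and 22.8 CPM in pd1116, against 33.9, 36.2 and 37.8 CPM in EK on LP (−0.78, SE 0.16, adjusted p = 0.00573). The integrated stress response list it belongs to had 2 lower and 2 higher of 50 on LP, with a median of −0.01. These are 4% each in the pooled fit, near the shares of all genes there.

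Fatty acid oxidation genes were lower in 6 of 46 cases and higher in 1 (13.0% and 2.17%, against 3.86% and 2.82% of all genes), with a median of −0.25. Fitting the compared groups alone, 16 fell and 1 rose. ABCD3 (ENSDARG00000104085), a peroxisomal transporter of fatty acids, had 103, 99.8 and 106 CPM in pd1116, against 153, 170 and 169 CPM in EK on LP (−0.67, SE 0.10, adjusted p = 2.66e-04). ACAA1, the peroxisomal thiolase, had 25.8, 20.4 and 24.3 CPM in pd1116 and 36.8, 40.0 and 40.2 CPM in EK (−0.73, SE 0.15, adjusted p = 0.00550). The member that rose was PPARA, a nuclear receptor that switches on fatty acid oxidation in fasting, with 8.23, 10.8 and 10.3 CPM in pd1116 and 7.11, 6.52 and 6.49 CPM in EK (0.54, SE 0.15, adjusted p = 0.0308). PPARA lost this call without replicate 1, 2 or 3 of EK (adjusted p = 0.0642, 0.114 and 0.108) and without replicate 2 or 3 of pd1116 (0.122 and 0.122). Without replicate 1, 2 or 3 of EK or replicate 3 of pd1116, 3 members fell, and without replicate 2 of pd1116 4 did. Of 41 amino acid and peptide transporter genes 2 fell and 1 rose in the pooled fit (4.88% and 2.44%), which is near the shares of all genes there. SLC43A2 (ENSDARG00000061120), a carrier of large neutral amino acids, was among those that fell on LP and fell on HP too. It had 194, 229 and 198 CPM in pd1116, against 320, 307 and 317 CPM in EK on LP (−0.60, SE 0.10, adjusted p = 0.00139).

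**Figure D4:**
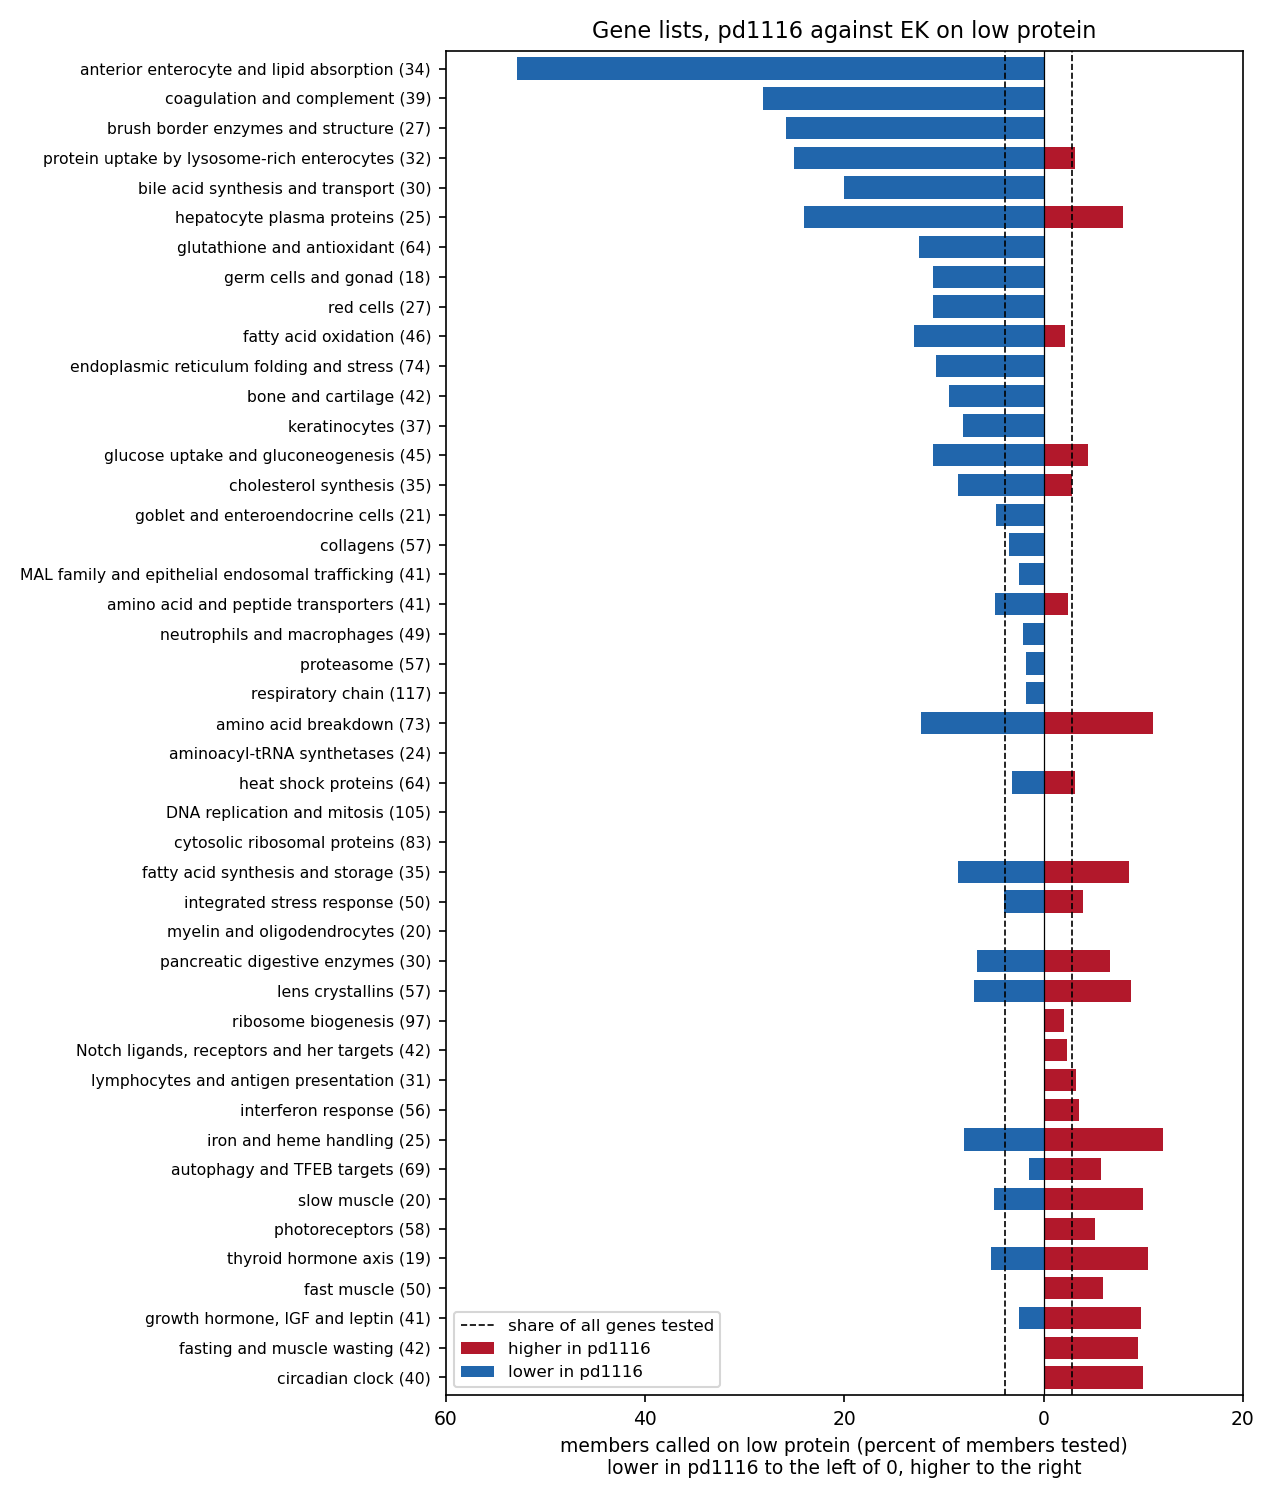
Share of the tested members of each of 45 gene lists that passed on LP, lower in pd1116 to the left and higher to the right, with the number tested in brackets and dashed lines at the shares of all genes (3.86% lower, 2.82% higher). The lipid absorption list reaches farthest left, with 18 of 34 members.

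Genes of fasting and of the circadian clock had small numbers of calls, all of them higher in the pooled fit. Of 42 fasting and muscle wasting genes 4 rose on LP and 0 fell (9.52% against 2.82% of all genes), namely igfbp1b, LPIN1, SESN1 and IRS2. The compared groups alone gave 9 higher and 1 lower. igfbp1b, a binding protein of insulin-like growth factors, had 126, 220 and 183 CPM in pd1116, against 94.9, 98.7 and 111 CPM in EK on LP (0.80, SE 0.20, adjusted p = 0.0227). SESN1, a nutrient sensor upstream of mTOR, had 140, 212 and 169 CPM in pd1116 and 114, 97.0 and 110 CPM in EK (0.70, SE 0.19, adjusted p = 0.0338). LPIN1, a phosphatidate phosphatase, had 166, 279 and 253 CPM in pd1116 and 156, 95.2 and 125 CPM in EK (0.89, SE 0.26, adjusted p = 0.0423). These calls were not stable: without replicate 2 of pd1116 the adjusted p was 0.126 for igfbp1b, 0.164 for SESN1 and 0.156 for LPIN1. Without that library, replicate 3 of pd1116, or replicate 2 or 3 of EK, 0 fasting genes rose. Of all genes 1.36% to 1.9% rose in those fits, fewer than in the full pooled fit. Without replicate 1 of EK, 1 rose. In 40 clock genes 4 rose and 0 fell (10.0% higher). PER3, a repressor of the clock, had 334, 382 and 356 CPM in pd1116, against 263, 258 and 249 CPM in EK on LP (0.48, SE 0.10, adjusted p = 0.00662). The clock count was 1 without replicate 1 or 3 of EK or replicate 3 of pd1116, and 10 in the compared groups alone. No clock or fasting gene passed on HP by edgeR or DESeq2, where 4 and 3 had an unadjusted p below 0.05 by edgeR. Of all genes 1.27% rose and 1.63% fell on HP, and 13.3% had an unadjusted p below 0.05. Lists of 40 and 42 genes with such shares would hold few calls, so the absence of calls on HP says little.

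Some stress and interferon genes differed widely between the pd1116 libraries. hsp70l, an inducible heat shock protein, had 15.16, 7.13 and 54.3 CPM in pd1116, against 2.99, 4.16 and 2.85 CPM in EK on LP (2.95, SE 0.50, adjusted p = 0.00127). The groups did not overlap, and replicate 3 held most of the level: without it the log2 fold change was 1.74. hsp70l kept its call on LP in every setting, with an adjusted p of at most 0.0444. The interferon-induced genes ifit15 and RSAD2 were high in replicates 1 and 3 of pd1116 and low in replicate 2. ifit15 had 24.4, 0.396 and 32.8 CPM in pd1116, against 0.511, 0.896 and 2.85 CPM in EK on LP (3.79, SE 0.94, adjusted p = 0.0194). RSAD2, the antiviral enzyme viperin, had 8.23, 0.297 and 20.3 CPM in pd1116, against 0.275, 0.652 and 2.38 CPM in EK (3.17, SE 0.91, adjusted p = 0.0413). RSAD2 did not pass by DESeq2 (adjusted p = 0.0689) or with the replicate block (0.0659). Of 56 interferon response genes these 2 rose, which is 3.57% and near the 2.82% of all genes, and 3 rose in the compared groups alone. The number was 9 without replicate 2 of pd1116, 3 without replicate 3 of EK and 0 without any other of the 6 libraries on LP. Summed, the list held 580, 483 and 771 CPM in pd1116 on LP, against 522, 530 and 613 CPM in EK on LP.

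Of the lists that mark tissues or growth, several had few calls on LP, or calls in either direction. By edgeR 0 of 83 cytosolic ribosomal protein genes, 0 of 105 genes of DNA replication and mitosis and 0 of 20 myelin genes passed. Unadjusted p was below 0.05 in 0, 3 and 0 of them, and DESeq2 called 0, 1 and 0. Pancreatic digestive enzymes had 2 higher and 2 lower of 30 (6.67% each, against 2.82% and 3.86% of all genes), and 6 higher and 3 lower in the compared groups alone. Their sum was 22200, 21700 and 22300 CPM in pd1116, against 21300, 24300 and 19900 CPM in EK on LP. Collagens had 2 lower of 57 (3.51%), and 6 lower and 1 higher in the compared groups alone. Fast muscle genes had 3 higher of 50 (6.00%), and 9 higher and 3 lower in the compared groups alone, but in the pooled fit 1 without replicate 1 of EK or replicate 2 of pd1116, and 0 without replicate 2 or 3 of EK or replicate 1 of pd1116. Their sum was 101000, 92600 and 72800 CPM in pd1116, and 80300, 71900 and 83600 CPM in EK on LP. Lens crystallins had 5 higher and 4 lower of 57 (8.77% and 7.02%), and 15 higher and 6 lower in the compared groups alone. Among them crygm2c, a gamma-crystallin gene, was the one that rose on both diets (1.64 on LP, adjusted p = 2.7e-05).

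Red cell genes fell in 3 of 27 cases and rose in 0 (where 3.86% of all genes fell), with a median of −0.24. In the compared groups alone 8 fell and 1 rose. hbae5, a globin gene, had 3.68, 2.97 and 2.65 CPM in pd1116, against 28.7, 7.90 and 7.57 CPM in EK on LP (−2.26, SE 0.51, adjusted p = 0.0112). It lost its call without replicate 1 of EK, the high library (adjusted p = 0.0997), and without replicate 3 of pd1116 (0.0634), and without either of them 0 red cell genes fell. Red cell genes that fell numbered 1 without replicate 2 of EK or replicate 1 of pd1116, and 2 without replicate 3 of EK.

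On HP fewer genes separated the lines: 659 passed (2.9%), 288 (1.27%) higher and 371 (1.63%) lower, and 324 (1.42%) by at least 2-fold. The libraries there are other ones, so the HP values can be set against those on LP. Of the genes called on LP, 388 were called the same way on HP, which is 1.71% of all genes tested, 25.5% of the LP calls and 58.9% of the HP calls. Of these, 169 (0.743% of all genes) were higher and 219 (0.963%) lower in pd1116. The sign on HP was that on LP in 80.6% of the LP calls. Over the LP calls, which were chosen on LP, the median absolute log2 fold change was 0.69 on LP and 0.30 on HP. The single gene called in opposite directions was Metazoa_SRP (ENSDARG00000114737), one of several genes named for the RNA of the signal recognition particle. Reads could be split between genes of that name, so the level of this gene is uncertain. It had 0.629, 1.34 and 1.12 CPM in pd1116, against 2.12, 2.73 and 2.47 CPM in EK on LP (−1.24, adjusted p = 0.0355), and 6.55, 4.48 and 3.13 CPM in pd1116, against 1.57, 1.66 and 2.5 CPM in EK on HP (1.3, adjusted p = 0.0192).

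**Figure D5:**
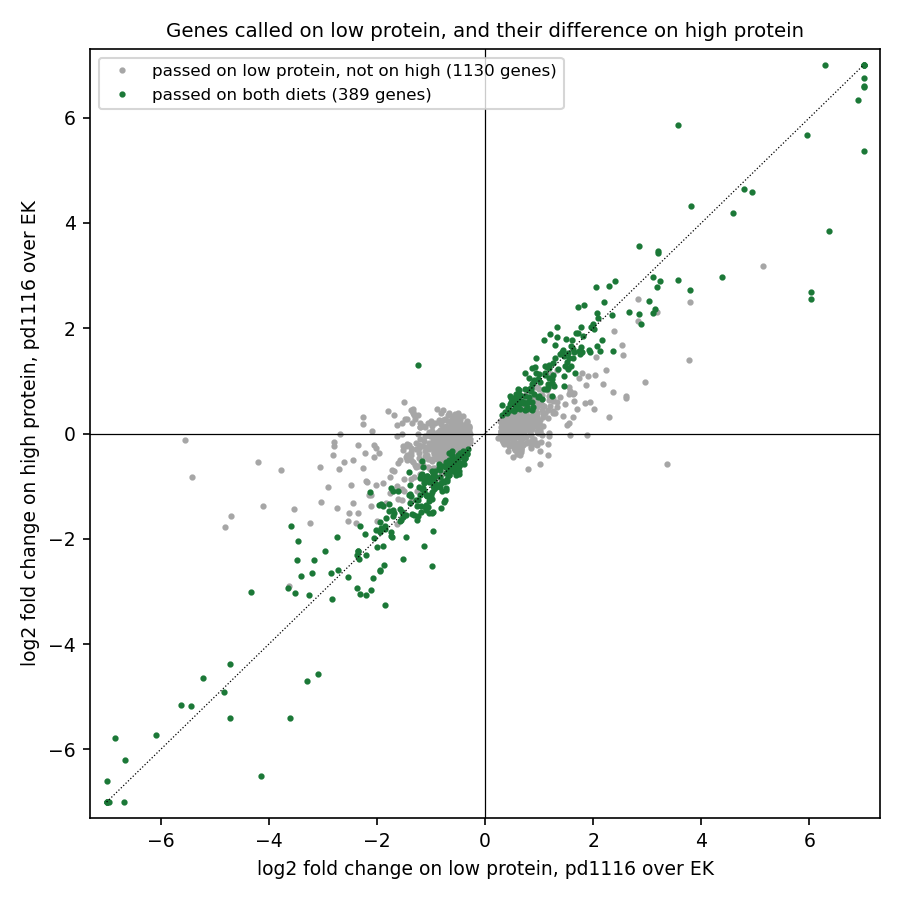
Log2 fold change of pd1116 over EK on LP (x) and HP (y) for the 1519 genes called on LP, green where the gene also passed on HP (389 genes, 1 of them with opposite signs) and grey where it did not (1130 genes). The dotted line marks equal values, and 16 genes beyond 7 in size are drawn at the edge.

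Whether the line difference itself depended on the diet was tested by the interaction of line and diet. In the pooled fit 1 gene passed (0.0044%), and 2600 had an unadjusted p below 0.05 (11.4%). The count was 598 when only the 12 libraries of pd1116 and EK were fitted, 226 without replicate 3 of pd1245 on LP, and 162 by DESeq2. The gene of the pooled fit was cbln6, of the cerebellin family of secreted proteins. It had 0.0484, 0.0495 and 0.0349 CPM in pd1116 on LP, against 2.04, 2.12 and 2.60 CPM in EK on LP (−5.54, SE 0.69, adjusted p = 5.69e-05). On HP it had 6.08, 4.71 and 3.48 CPM in pd1116 and 3.27, 6.49 and 5.57 CPM in EK, which overlap. The interaction was −5.43 (SE 0.80, adjusted p = 0.0416), and it lost its call without replicate 1 of EK on HP, replicate 1 or 2 of pd1116 on HP, or any library on LP, of either line (adjusted p up to 0.228). pd1245 on LP was low as well, with 0.328, 0.309 and 0 CPM.

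For the gut and liver lists the interaction had a negative median, −0.44 for lipid absorption, −0.27 for protein uptake, −0.68 for hepatocyte plasma proteins and −0.44 for coagulation and complement, against 0.012 for all genes. These lists stood out on LP, and the interaction uses the same LP values. Other lists had negative medians too: −0.39 for red cells, −0.33 for bile acid genes and −0.22 for the proteasome, while fast muscle had 0.31. In the pooled fit by edgeR 0 members of the gut and liver lists passed, while 12, 12, 16 and 20 had an unadjusted p below 0.05. Fitting the 12 libraries alone gave 10 of 34, 9 of 32, 13 of the hepatocyte genes and 14 of 39, all lower on LP relative to HP. Without replicate 3 of pd1245 on LP the numbers were 6, 0, 5 and 5, and by DESeq2 4, 4, 4 and 1. These are to be read against the interaction calls over all genes. They numbered 598 in the 12 libraries alone, 226 of 23008 without replicate 3 of pd1245, and 162 by DESeq2. The shares of all genes tested in the 12 libraries alone and by DESeq2, and the split by direction, are not given here. The list counts from these fits are therefore given as values only. In the pooled fit 11.4% of all genes had an unadjusted p below 0.05. Among single genes, apoea had an interaction of −0.84 (SE 0.19, adjusted p = 0.147) in the pooled fit and of −0.85 (SE 0.12, adjusted p = 0.00312) in the 12 libraries alone. LGMN had −0.90 (SE 0.24, adjusted p = 0.185) and −0.91 (SE 0.19, adjusted p = 0.0258) in those fits, and apobb.2 had −3.10 (SE 0.84, adjusted p = 0.190) and −3.11 (SE 0.40, adjusted p = 0.00209). The brush border list had a median interaction of 0.04, and LCT (ENSDARG00000092404) one of 0.56 (adjusted p = 0.711).

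The submitters set pd1116 beside the newer allele pd1245, and the lines were compared directly on LP. Here 4590 genes passed (20.2%), 2249 (9.89%) higher and 2341 (10.3%) lower in pd1116, 957 (4.21%) of them by at least 2-fold. The count was 2949 without replicate 3 of pd1245, 2288 without replicate 2 of pd1116 and 585 when only these 6 libraries were fitted. Of the 32 protein uptake genes 16 were higher in pd1116 and 0 lower. Without that pd1245 library 13 were higher, where 2949 of all 23008 genes tested passed in either direction. List counts from the fit of these 6 libraries alone are not given. ctsbb had 113, 130 and 68.3 CPM in pd1116, against 40.7, 47.4 and 57.4 CPM in pd1245 (1.1, SE 0.22, adjusted p = 0.00228). CUBN had 135, 144 and 75.5 CPM in pd1116, against 56.9, 69.4 and 31.6 CPM in pd1245 (1.16, SE 0.28, adjusted p = 0.00818), and dab2 (ENSDARG00000031761) was higher by 0.92 (SE 0.19, adjusted p = 0.00321). LGMN had 297, 351 and 225 CPM in pd1116, against 161, 175 and 181 CPM in pd1245 (0.75, SE 0.17, adjusted p = 0.00602). Every pd1116 library on LP lay above the pd1245 libraries and below the EK libraries in both ctsbb and LGMN. Lipid absorption genes had 4 higher and 3 lower of 34 between the alleles, near the shares of all genes (9.89% higher and 10.3% lower). Of these genes, apoea had 371, 344 and 367 CPM in pd1116 and 325, 317 and 372 CPM in pd1245 (0.10, SE 0.14, adjusted p = 0.65). Of the genes that marked pd1116 on both diets, some were near the EK level in pd1245: EMILIN2 had 1.03, 1.43 and 1.02 CPM there, and TP53I3 had 4.27, 3.82 and 3.90 CPM. PAQR3 (ENSDARG00000044253), of the progestin and adiponectin receptor family, was an exception. It had 10.8, 8.82 and 10.9 CPM in pd1116 and 8.90, 10.1 and 9.54 CPM in pd1245, against 2.44, 1.06 and 5.28 CPM in EK on LP. LCT (ENSDARG00000092404) was likewise low in both mutants, with 7.59, 3.98 and 5.08 CPM in pd1245. MEP1B (ENSDARG00000037533) was not, with 40.9, 58.6 and 41.9 CPM in pd1245.

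The chromosome that carries pllp was looked at by gene order, in an annotation of another assembly (GRCz12tu) that placed 15457 of the genes tested. Among the 10 nearest placed genes on either side of pllp, 4 of 20 passed on LP, all lower in pd1116: SIAH1, ARL2BP, HACD3 and INTS14. ARL2BP, the next placed gene and a partner of the small GTPase ARL2, had 2.79 CPM in pd1116 and 4.11 CPM in EK on LP (means, n = 3, log2 fold change −0.56, SE 0.15, adjusted p = 0.0302). HACD3, of fatty acid elongation, had −0.52 (SE 0.11, adjusted p = 0.00852). SIAH1, a ubiquitin ligase, was the one that passed on HP too. Widening the window to 50 genes on either side gave 8 of 100, and to 100 genes 22 of 200 (11%), against 6.69% of all placed genes. The whole chromosome ranked second of 25, with 10% of its placed genes called, and the highest had 11.6%.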

How the data were processed

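Poly(A) RNA of whole larvae was made into libraries that keep the strand by dUTP, per the labels' protocols. Per the submitters' processing notes, reads were handled with FastQC 0.11.7, Trim Galore 0.6.5, STAR 2.7.3a and HTSeq 0.11.1, with the build GRCz11 (danRer11). The annotation release and strand setting are not given in the sources used here. The authors deposited raw read counts for each gene, not normalized. Reads that name no gene, 14.62 to 16.76% per library, were left out.

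All 18 libraries with the same processing (6 groups of 3) were fitted in 1 model with edgeR 4.0.16 in R 4.3.3: TMM scaling, filterByExpr on the 6 groups (22742 of 32520 genes kept), quasi-likelihood F test, 2-sided, Benjamini-Hochberg adjustment over all genes, threshold 0.05, no fold minimum. SE is the log2 fold change (prior count 0.125) over the square root of F. CPM uses the TMM-scaled library size. The fit was tested on simulated data. The remaining 14 libraries hold no pd1116 and were not used.

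Named genes were pllp, up to 10 higher and 10 lower genes by fold on LP (libraries of the lines not overlapping, 2 CPM or more in the higher group, symbol not a clone name), up to 5 called members per list by p, and called interaction genes. Others are marked as chosen after their values were seen, as was FABP2. Some results are not reported here. The comparison, the 45 lists and the tests were chosen with earlier results of these data known. Symbols come from a gene table, and genes that share one are printed with their identifier. Replicates were compared and none was a duplicate. Replicate numbers were not used as pairs in the main fit. In 0 of 6 pairs of groups did every matched pair correlate above 0.1, a check that would miss a weak or partial pairing. The neighbourhood of pllp had been planned by distance and was counted by gene order, since the annotation at hand is of another build. Alternatives were scaling by RLE or by upper quartile, leaving out the filter, asking for 50 counts, the compared groups alone, a replicate block and DESeq2 1.42.0. Each EK and pd1116 library was also left out in turn, as was replicate 3 of pd1245 on LP, but no other pd1245 library. Figures were drawn with matplotlib 3.10.9.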

Additional observations from a re-analysis of the deposited data

Results flagged for a closer look

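cbln6 stood out because its difference between the lines was not the same on the 2 diets, by the test of that difference. The interaction of line and diet was −5.43 on the log2 scale (SE 0.80, adjusted p = 0.0416), with means of 0.0443 CPM in pd1116 and 2.25 CPM in EK on LP, and of 4.76 CPM in pd1116 and 5.11 CPM in EK on HP. In the 12 libraries of pd1116 and EK alone the adjusted p was 0.00177, without replicate 3 of pd1245 on LP it was 0.0103, and by DESeq2 it was 7.23e-05. The call was lost with the strict filter (adjusted p = 0.0514), with the replicate block (0.0627), and without replicate 1 of EK on HP (0.0610) or replicate 1 or 2 of pd1116 on HP (0.120 and 0.111). It was also lost without replicate 1, 2 or 3 of pd1116 on LP (0.228, 0.0522 and 0.163) or of EK on LP (0.0546, 0.101 and 0.142). The interaction lay between −5.65 and −5.21 in all settings.

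Several genes share the name of Metazoa_SRP (ENSDARG00000114737), and reads could be split between them, so its level is uncertain. This gene was lower in pd1116 on LP and higher in pd1116 on HP, in every library. Its interaction was −2.53 (SE 0.45) with an adjusted p of 0.123 in the pooled fit, so the difference between diets did not pass there. It passed with no filter (adjusted p = 0.0482), without replicate 3 of pd1116 on HP (0.0280), in the 12 libraries alone (adjusted p = 0.00800), without replicate 3 of pd1245 on LP (0.0197) and by DESeq2 (8.93e-04). The LP call of this gene was lost without replicate 1, 2 or 3 of EK (adjusted p = 0.0568, 0.124 and 0.0896) and without replicate 1 or 3 of pd1116 (0.144 and 0.0973).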

How the results depend on the processing

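The 1519 genes called on LP became 1517 with RLE and 1505 with upper quartile scaling, 1484 with no filter, 1369 with the strict filter, 1384 with the replicate block and 1844 by DESeq2, of which 1512, 1481, 1395, 1325, 1320 and 1492 were shared. They became 3192 (1474 shared) in the compared groups alone and 2968 (1519 shared) once replicate 3 of pd1245 on LP was dropped. Dropping 1 library of EK or pd1116, or replicate 3 of pd1245 on LP, gave 752 to 2968. No other pd1245 library was dropped, here or in the ranges below. In the compared groups alone, dropping 1 library gave 1750 to 2874, with 2692 without replicate 1 of pd1116, an alternative added after seeing the data. The 659 calls on HP became 993 in the compared groups alone, 601 with the replicate block and 392 to 1246 without 1 library. The 1 interaction call became 3 with no filter, 0 with the strict filter, 598 in the compared groups alone, 0 with the replicate block, 162 by DESeq2 and 0 to 226 without 1 library. Against pd1245 on LP, with settings chosen after seeing the data, the 4590 calls became 585 in the compared groups alone and 2288 to 3166 without 1 library. The cause of these shifts was not tested. Of 22 calls among the 200 nearest genes of pllp 2 were of at least 2-fold. Among all 15457 placed genes, 258 of 1034 calls were. Of 174 named genes 79 lost their LP call under some setting, and 2 of 3471 values changed sign, both for dab2 (ENSDARG00000031761), which had not passed: −0.27 without replicate 2 and 0.0014 without replicate 3 of pd1116, and 0.0032 without it in the compared groups alone. The replicate numbers share no known source, so the block is given as a value only. Counting depth was alike in the groups and sets the floor for genes with no count.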
